A study of Mus musculus with 4 samples.

Results

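Alveolar type 1 (AT1) cells are the flat cells across which the lung exchanges gas, and the 10 genes described here (Hopx, Ager, Pdpn, Aqp5, Cav1, Emp2, Rtkn2, Clic5, Akap5 and Igfbp2) are markers by which these cells are commonly recognized. The members were taken as the rows of the raw count table whose gene symbol is 1 of these 10 names, and 10 of 10 were found among 39017 genes. RNA was sequenced from 4 lung tumors of male KP mice on the C57BL6/J background, which carry floxed Trp53 alleles (Trp53 Fl/Fl) and develop lung adenocarcinoma once Cre is delivered. Each mouse received 1500 units of lenti.PGK-Cre through the trachea, and its lungs were collected 22 weeks and 5 days afterwards. The PGK promoter is active in most cell types, so Cre was not restricted to one kind of lung cell. The labels also give the genotype heterozygous fl/wt without a gene name, the columns of the deposited log2 table read WT, and the methods allow either wild type or a single floxed Slc2a1 allele in control mice. All 4 tumors formed 1 group, Control, with 1 library per tumor, so no treatment or genotype was compared. Whether each tumor came from its own mouse was not given, so the spread between tumors may in part be spread within a mouse.

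AT1 cells cover most of the gas-exchange surface, although the cuboidal alveolar type 2 (AT2) cells, which make surfactant, are the more numerous. AT2 cells act as stem cells of the alveolus. They give rise to AT1 cells after injury, passing through a transitional state rich in keratin 8. Tumors of the KP model can start from AT2 cells, and single tumor cells with AT1-like transcription are a known feature of such tumors. None of the members is made by AT1 cells alone. Cav1 and Clic5 are also transcribed in endothelium, Pdpn in lymphatic endothelium, mesothelium and fibroblasts, and Aqp5 in some AT2 and gland cells of the mouse.

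The libraries were similar in depth, with 8151613 to 8799007 counts per tumor, so that 3 counts corresponded to a normalized count of 0.330 to 0.370 CPM. CPM is the count scaled to an effective library of 1000000 counts, where the effective size is the total times a TMM factor that makes the bulk of genes comparable between libraries. Epithelial and AT2 genes were present in all tumors. The surfactant gene Sftpc was at 17722, 26616, 24926 and 29617 CPM in tumors 1 to 4 and the adherens junction gene Cdh1 at 842, 887, 846 and 876 CPM. By the means of their gene lists, tumor 1 was low for AT2, club and ciliated cells, and tumor 3 was high for leukocytes and T cells. Those values are given beside the AT1 markers further on.

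All 10 members were measured well above the floor of 3 counts in every tumor, and 10 of 10 passed the filter of a mean of at least 1 CPM that left 14225 genes. Their mean levels ran from 6.58 CPM for Igfbp2 to 1011 CPM for Ager, against a median of 27.4 CPM over the genes tested. The lowest single count was 28, for Igfbp2 in tumor 2. In RNA of whole tumors, fewer cells of a type and less RNA per cell cannot be told apart, nor can tumor cells that transcribe a marker and normal lung cells in the dissected tissue.

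The promoters of 3 members are shown first, because 9 of 10 members were lowest in the same tumor, and letters shared near their starts could be read here. The sequences are from RefSeq on GRCm38.p6, with 250 bases before the transcription start and 50 after it. Of the 10 members, 9 were matched and Rtkn2 was not, and 12 starts were listed for these 9. Short motifs of TEAD, NKX2-1, AP-1 and GATA factors, spelled out with their counts, were searched on both strands. The start of Ager, the most abundant member, lies at chr17:34597600-34597899 on the plus strand and held no match. The downstream start of Hopx lies at chr5:77095218-77095517 on the minus strand, and its capitals mark the only NKX2-1 match, 34 bases after the start and read on the opposite strand. A further start of Igfbp2, the least abundant member, lies at chr1:72825137-72825436 on the plus strand, and its capitals mark the only AP-1 match, 39 bases before the start.
Ager: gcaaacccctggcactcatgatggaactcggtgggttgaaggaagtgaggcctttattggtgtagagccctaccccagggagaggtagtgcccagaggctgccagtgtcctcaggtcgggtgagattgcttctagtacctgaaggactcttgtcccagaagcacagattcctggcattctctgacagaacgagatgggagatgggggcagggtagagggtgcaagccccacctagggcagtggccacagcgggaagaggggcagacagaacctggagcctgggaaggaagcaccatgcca
Hopx: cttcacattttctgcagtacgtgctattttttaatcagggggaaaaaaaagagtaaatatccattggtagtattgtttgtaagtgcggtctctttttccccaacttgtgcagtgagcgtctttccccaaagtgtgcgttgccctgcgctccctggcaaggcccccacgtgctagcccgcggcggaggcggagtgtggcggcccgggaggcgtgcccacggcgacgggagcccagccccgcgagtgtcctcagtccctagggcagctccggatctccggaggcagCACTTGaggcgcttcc
Igfbp2: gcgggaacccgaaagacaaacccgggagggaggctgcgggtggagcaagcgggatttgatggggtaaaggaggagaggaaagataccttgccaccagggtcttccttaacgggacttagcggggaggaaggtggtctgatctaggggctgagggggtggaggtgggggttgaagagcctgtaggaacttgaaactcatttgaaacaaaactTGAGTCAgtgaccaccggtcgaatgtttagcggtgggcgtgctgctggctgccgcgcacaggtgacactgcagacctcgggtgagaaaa
The TEAD motif, GGAATG, was in 0 of 12 member promoters and in 14.7% of all 32851 mouse promoters of the same length. The NKX2-1 motif, CAAGTG, was in 1 of 12 member promoters and in 13.6% of all. The AP-1 motif, TGANTCA with N as any base, was in 1 of 12 and in 7.81% of all. The GATA motif, GATAAG, was in 0 of 12 and in 7.44% of all. No member promoter held matches to more than 1 of these motifs. The GC content of the member promoters was 48.7% for Pdpn at the lowest and 79.7% for Aqp5 at the highest, with a median of 52.7% over all promoters. These matches are a description of letters in a window and say nothing of binding in these tumors.

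The members are taken by role, beginning with the receptor and other proteins of the cell surface. Ager, the most abundant member, encodes RAGE, the receptor for advanced glycation end products, which AT1 cells carry on their basal membrane in large amounts. It lies at chr17:34597862-34600936 on the plus strand. Its normalized counts were 1117, 697, 1224 and 1004 CPM in tumors 1 to 4 (1011 ± 227 CPM, SD, n = 4), which placed it at rank 60 of 14225 genes by mean CPM. Tumor 2 was the low one, and the highest tumor exceeded it 1.76-fold. Ager alone made up 55.5%, 54.0%, 53.8% and 48.9% of the members' summed level per kilobase of exon (FPKM) in tumors 1 to 4. Its share thus stayed between 48.9% and 55.5% while its level changed.

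Emp2 encodes a membrane protein with 4 spans that is dense on AT1 cells, at chr16:10281749-10313968 on the minus strand. It was measured at 544, 558, 819 and 881 CPM in tumors 1 to 4 (701 ± 174 CPM, SD, n = 4). Tumors 1 and 2 were close to each other and below tumors 3 and 4. Emp2 was the only member whose lowest tumor was not tumor 2, at 544 CPM in tumor 1 against 558 CPM in tumor 2. Its transcripts share stretches of 92 to 134 nt with 9 other annotated genes, so its counts are uncertain to the extent that such reads were assigned elsewhere.

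Pdpn encodes podoplanin, the mucin-like glycoprotein first known in lung as T1alpha, at chr4:143267431-143299564 on the minus strand. Its values were 218, 85.7, 222 and 112 CPM in tumors 1 to 4 (159 ± 71.0 CPM, SD, n = 4). Tumors 1 and 3 were high and tumors 2 and 4 were low, a split seen in no other member. Tumor 4, which had the highest value of 5 other members, was at 112 CPM for Pdpn against 222 CPM in tumor 3. The range from tumor 2 to tumor 3 was 2.59-fold.

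Channels and the caveolar coat protein are described next. Aqp5 encodes the apical water channel of AT1 cells, at chr15:99590782-99594829 on the plus strand. Its values of 232, 194, 258 and 298 CPM in tumors 1 to 4 (246 ± 43.9 CPM, SD, n = 4) gave the smallest spread among the members, with an SD of 0.26 on the log2 scale. It was the only member whose SD was below the median of all tested genes, 0.29. Its range was 1.54-fold, again from tumor 2 upward.

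Clic5 encodes a chloride intracellular channel protein that binds the cell cortex through ezrin, at chr17:44188584-44280172 on the plus strand. It stood at 243, 129, 342 and 448 CPM in tumors 1 to 4 (291 ± 137 CPM, SD, n = 4). The 4 values were spread evenly rather than in groups, and tumor 4 exceeded tumor 2 by 3.47-fold. Ezr, which encodes ezrin, followed another order at 468, 332, 315 and 377 CPM.

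Cav1 encodes caveolin-1, the coat protein of the membrane pits that AT1 and endothelial cells hold in large numbers, at chr6:17306335-17341452 on the plus strand. It was counted at 66.4, 61.0, 133 and 106 CPM in tumors 1 to 4 (91.6 ± 34.2 CPM, SD, n = 4). Tumors 1 and 2 were low and tumors 3 and 4 high, with no value between 66.4 and 106 CPM. Its partner Cav2 was at 144, 205, 226 and 221 CPM and the caveolar coat gene Cavin2 at 41.6, 54.4, 80.5 and 76.0 CPM, both lowest in tumor 1. Cavin1, needed for caveolae to form, was at 181, 92.7, 103 and 134 CPM and so was highest in tumor 1, where Cav1 was low.

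Akap5 and Rtkn2 encode scaffold and signaling proteins. Akap5 encodes an anchoring protein that holds protein kinase A and calcineurin at the membrane, at chr12:76324891-76334153 on the plus strand. Its values were 353, 163, 204 and 377 CPM in tumors 1 to 4 (274 ± 106 CPM, SD, n = 4). Tumors 1 and 4 were high and tumors 2 and 3 low, so that Akap5 was the only member lower in tumor 3 than in tumor 1. Ppp3ca, a calcineurin catalytic subunit, was at 244, 183, 139 and 206 CPM, and the kinase A subunit gene Prkar2a was nearly level at 82.5, 96.6, 83.7 and 94.3 CPM.

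Rtkn2 encodes a member of the rhotekin family of signaling proteins and lies at chr10:67979570-68059740 on the plus strand. It had the widest spread of the members, at 13.0, 12.9, 49.6 and 32.2 CPM in tumors 1 to 4 (26.9 ± 17.6 CPM, SD, n = 4). The counts behind these values were 118, 111, 402 and 271. Tumors 1 and 2 were thus level, and tumor 3 exceeded tumor 2 by 3.85-fold. An antisense gene, Gm16212, overlaps an exon of Rtkn2 and had 0 counts in all tumors.

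Igfbp2 encodes a secreted protein that binds insulin-like growth factors and is known as a mark of the most mature AT1 cells, at chr1:72824503-72852474 on the plus strand. It was the least abundant member, at 6.93, 3.25, 8.64 and 7.49 CPM in tumors 1 to 4 (6.58 ± 2.33 CPM, SD, n = 4). Tumor 2 was the low one with 28 counts, and the other tumors had 63, 70 and 63 counts. The growth factor gene Igf1 was at 19.8, 20.8, 46.3 and 39.4 CPM, and its receptor gene Igf1r at 9.35, 11.8, 14.3 and 11.4 CPM.

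Hopx encodes a small homeodomain protein that does not bind DNA itself and acts through other nuclear factors, at chr5:77086988-77115121 on the minus strand. Its values were 63.7, 46.2, 81.7 and 98.4 CPM in tumors 1 to 4 (72.5 ± 22.5 CPM, SD, n = 4). It was lowest in tumor 2 and highest in tumor 4, with a 2.13-fold range. Hdac2, the gene of a deacetylase that Hopx protein is known to recruit, was at 112, 155, 138 and 135 CPM and highest in tumor 2. An antisense gene, Hopxos, shares 388 nt with Hopx exons but had 3 counts at most, while Hopx itself had at least 398.

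**Figure D1:**
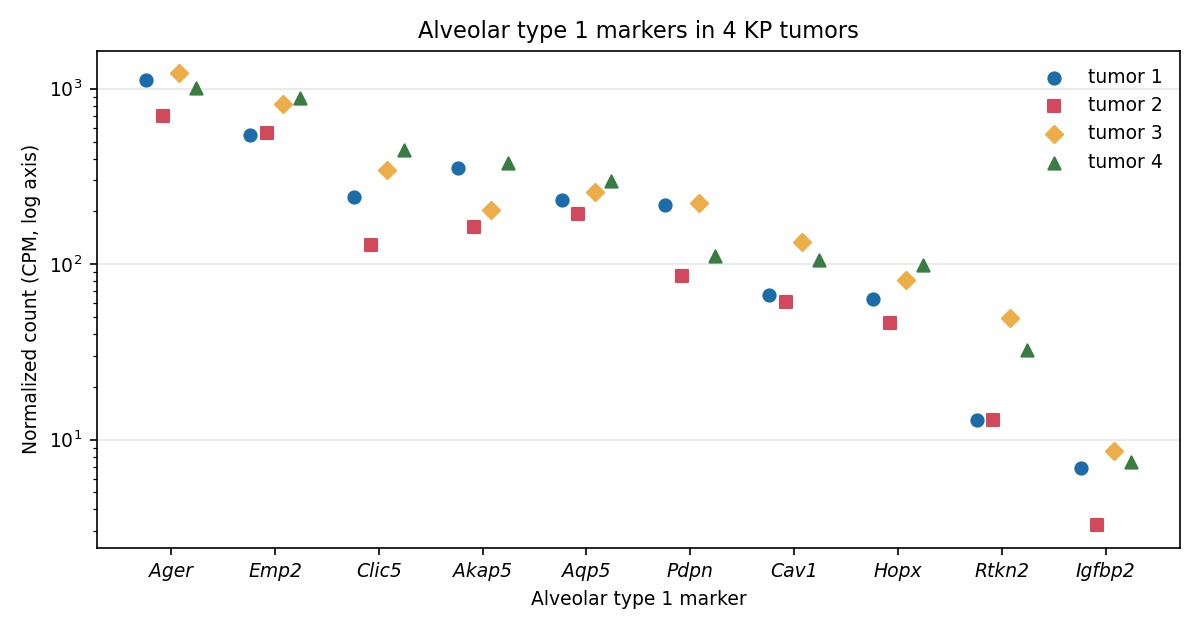
Normalized counts (CPM, log axis) of the 10 AT1 markers in each of the 4 tumors, ordered by mean CPM, with 1 point per tumor. Tumor 2 is the lowest point for every marker except Emp2, where tumor 1 is at 544 CPM and tumor 2 at 558 CPM.

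Compared per kilobase of exon, the members again fell into a high, a middle and a low set. Mean levels on the log2 FPKM scale were 8.85 for Ager, 6.55 for Aqp5, 6.34 for Pdpn, 6.31 for Emp2, 5.53 for Hopx, 5.24 for Akap5, 4.91 for Clic5, 4.66 for Cav1, 2.04 for Rtkn2 and 1.76 for Igfbp2. Of the 9 pairs of neighbors in this order, 3 kept their order in all 4 tumors. Ager exceeded Aqp5 by 2.31 ± 0.27 (SD over tumors, log2 FPKM), Emp2 exceeded Hopx by 0.78 ± 0.22, and Cav1 exceeded Rtkn2 by 2.62 ± 0.44. For each of these 3 pairs a two-sided exact permutation test that flips the sign of each tumor's difference gave p = 0.125, the smallest p that 4 tumors allow, and 0.375 after Benjamini-Hochberg adjustment over the 9 pairs. The test thus separated no pair, and the order itself was taken from the same 4 tumors. The other neighbors changed order between tumors. Pdpn and Emp2 differed by 0.03 ± 0.76 and Aqp5 and Pdpn by 0.21 ± 0.67, with each gene of both pairs ahead in 2 of 4 tumors. Hopx, Akap5, Clic5 and Cav1 followed each other with steps of 0.25 to 0.33, each held in 3 of 4 tumors. Against 14100 tested genes with an annotated length, Ager was at rank 49 and 8 of 10 members were above the median FPKM of 6.60, with Rtkn2 (4.85 ± 3.18 FPKM, SD, n = 4) and Igfbp2 (3.56 ± 1.26 FPKM) below it.

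**Figure D2:**
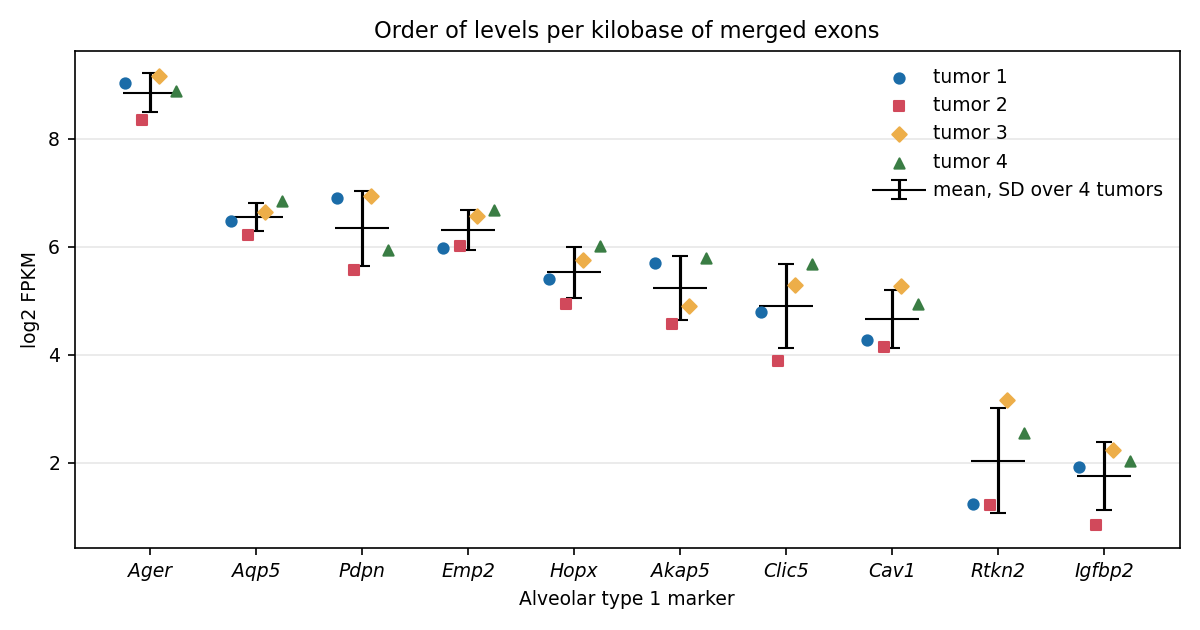
Level per kilobase of merged exons (log2 FPKM) of each AT1 marker in the 4 tumors, with the mean (horizontal line) and the SD over tumors (error bars). Ager lies above and Rtkn2 and Igfbp2 below the other 7 markers, among which only Emp2 and Hopx keep their order as neighbors in each tumor.

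The spread of the members between tumors was larger than counting error. A chi-square test of the 4 counts of each gene against Poisson expectations called 10 of 10 members after adjustment over all tested genes, but it also called 76.7% of those genes, so the call itself does not set the members apart. The chi-square values ran from 21.0 for Igfbp2, with an adjusted p of 0.00019, to 1653 for Clic5. By size, 7 of 10 members had a highest tumor over 2-fold above the lowest (Hopx, Pdpn, Cav1, Rtkn2, Clic5, Akap5 and Igfbp2), against 28.1% of all tested genes. The median SD of log2 CPM was 0.57 for the members and 0.29 for all tested genes. By edgeR, whose dispersion estimates allow for counting error, 7 of 10 members had a coefficient of variation above the trend for their abundance, against 23.1% of all genes. These were Hopx, Pdpn, Cav1, Emp2, Rtkn2, Clic5 and Akap5. No member had 1 tumor far from the other 3 by Dixon's ratio (0 of 10, with 5.86% of all genes), and Igfbp2 in tumor 2 came closest, with a ratio of 0.77. The range depended on tumor 2. Without it only Rtkn2 and Cav1 kept a range over 2-fold (2 of 10, against 23.8% of all genes), so the members no longer exceeded that share. The chi-square call of Igfbp2 was also lost (adjusted p = 0.48).

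Tumor 2 was the lowest tumor for 9 of 10 members, against 19.4% of all tested genes. For Rtkn2 this rested on 12.9 CPM in tumor 2 against 13.0 CPM in tumor 1, and the remaining member, Emp2, was lowest in tumor 1, as were 30.4% of all genes. No member was lowest in tumor 3 or tumor 4, where 32.5% and 17.7% of all genes were. The highest tumor was tumor 3 for Ager, Pdpn, Cav1, Rtkn2 and Igfbp2 (5 of 10, against 30.2% of all genes) and tumor 4 for Hopx, Aqp5, Emp2, Clic5 and Akap5 (5 of 10, against 18.0%). No member was highest in tumor 1 or tumor 2, where 31.4% and 20.4% of all genes were. For Pdpn this rested on 222 CPM in tumor 3 against 218 CPM in tumor 1. After each member was centred on its own mean, the mean of the 10 members was -0.05, -0.64, 0.37 and 0.32 in tumors 1 to 4 on the log2 CPM scale. Tumor 2 was thus low, tumors 3 and 4 were high and close to each other, and tumor 1 was between them. Without Cav1, Clic5, Emp2 and Pdpn, which endothelial or stromal cells also transcribe, the mean of the other 6 was -0.04, -0.64, 0.31 and 0.36. This choice was made after the data were seen, and the other 6 are not made by AT1 cells alone either.

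Set side by side, 10 of 10 members were higher in tumor 3 than in tumor 2 (median difference 0.97 on the log2 scale), where 48.6% of all genes were. Likewise 10 of 10 were higher in tumor 4 than in tumor 2 (median 0.94), against 50.5% of all genes. Tumor 1 exceeded tumor 2 in 9 of 10, against 50.4%. Tumor 3 exceeded tumor 1 in 9 of 10, against 48.9%, with Akap5 as the exception. Between tumors 3 and 4, 5 members were higher in each, where 51.5% of all genes were higher in tumor 4, and the median difference was -0.05. The members thus shared a low tumor 2 but had no shared order among tumors 3 and 4.

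How alike 2 genes were over the tumors was measured as the root mean square difference of their centred log2 CPM over 4 tumors. Among members, Aqp5 and Emp2 were closest, at 0.16, and Rtkn2 and Akap5 farthest apart, at 0.97. Outside the gene lists used here, 10165 genes with a mean of at least 10 CPM were compared with the mean profile of the members. The nearest were Pak1, a kinase gene, at 0.03, Kank3 at 0.07, Mapk1ip1 at 0.07, Rgs10 at 0.07 and Egfl7, a gene known from endothelium, at 0.09. Pak1 was at 41.3, 28.9, 56.9 and 56.0 CPM and so had the low tumor 2 and the level tumors 3 and 4 of the mean profile. Nearest to single members were Mapk1ip1 for Hopx (0.07), Gsto1 for Pdpn (0.14), Clec14a for Cav1 (0.05), Cbr2 for Rtkn2 (0.13), Eps8 for Clic5 (0.15), Adamtsl4 for Akap5 (0.06) and Elfn1 for Igfbp2 (0.11). With only 4 tumors, such closeness is a description and many genes can share a profile.

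**Figure D3:**
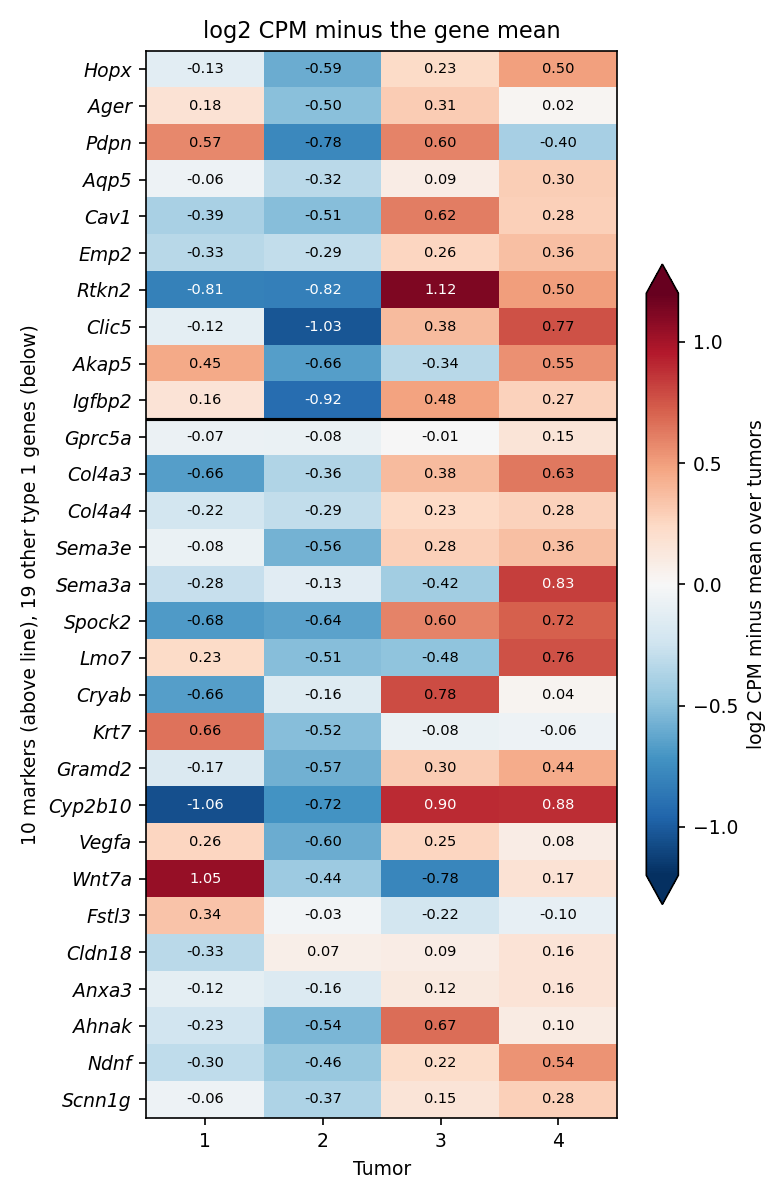
Log2 CPM minus the mean of each gene over the 4 tumors, for the 10 AT1 markers (above the line) and 19 further AT1 genes (below it), with 1 column per tumor, red above and blue below the gene's mean. The column of tumor 2 is blue for 10 of 10 markers, although Emp2 is slightly lower in tumor 1.

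A further list of 19 genes associated with AT1 cells was read in the same way. All 19 passed the filter, and 18 of 19 spread beyond counting error, where 76.7% of all genes did, with Fstl3 as the exception (adjusted p = 0.15). Tumor 2 was the lowest for 11 of 19, against 19.4% of all genes. Tumor 1 was the lowest for 5, against 30.4%, and tumor 3 for 3, against 32.5%. The mean of the list was -0.12, -0.37, 0.16 and 0.34 in tumors 1 to 4, again lowest in tumor 2. Its members were higher in tumor 4 than in tumor 2 in 18 of 19 cases, the exception being Fstl3, against 50.5% of all genes. They were higher in tumor 3 than in tumor 2 in 16 of 19, against 48.6%.

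Several of these genes were low in tumor 2 or in tumors 1 and 2. Gramd2, used to trace AT1 cells, was at 58.5, 44.4, 81.4 and 89.7 CPM, the order of tumors seen for Hopx. Ndnf, a secreted factor, was at 148, 133, 211 and 265 CPM and the sodium channel subunit gene Scnn1g at 24.2, 19.5, 28.1 and 30.8 CPM. Spock2, an extracellular proteoglycan gene, was at 10.8, 11.0, 26.2 and 28.4 CPM, with the level tumors 1 and 2 of Rtkn2 and Cav1. The basement membrane collagen gene Col4a3 was lowest in tumor 1, at 39.1, 48.2, 80.6 and 95.7 CPM. Vegfa, through which AT1 cells signal to capillaries, was lower in tumor 2 than in the other tumors, at 454, 250.3, 452 and 402 CPM.

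Others departed from that pattern. Krt7 was highest in tumor 1, at 758, 337, 454 and 463 CPM, and the ligand gene Wnt7a was at 68.8, 24.5, 19.3 and 37.5 CPM. Gprc5a, the list's highest gene per kilobase, was nearly level at 349, 347, 364 and 406 CPM. Cldn18, a tight junction gene shared by AT1 and AT2 cells, was lowest in tumor 1, at 594, 783, 792 and 835 CPM. The AT1 regulators, transcription factors and co-activators known to act in AT1 cells, had a mean of -0.04, 0.02, -0.19 and 0.22 over 7 genes, so that tumor 2 was not low for them. Nkx2-1, the lung lineage factor, was at 290, 306, 291 and 396 CPM, and Wwtr1, which encodes TAZ, was at 131, 78.9, 79.5 and 108 CPM.

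The AT2 program took another course over the tumors. The mean of 10 AT2 genes was -0.71, 0.21, 0.20 and 0.30 in tumors 1 to 4, with tumor 2 level with tumors 3 and 4. Tumor 1 was the lowest for 8 of these 10 genes, against 30.4% of all genes. Per kilobase, the mean of the 10 AT1 markers was below that of the 10 AT2 genes by a log2 FPKM difference of -3.47, -4.99, -3.96 and -4.12 in tumors 1 to 4 (mean -4.14 ± 0.63, SD, n = 4, exact two-sided permutation p = 0.125, again the smallest possible). The sign was the same in 4 of 4 tumors. The gap was widest in tumor 2, where AT1 markers were low, and narrowest in tumor 1, where AT2 genes were low. Genes of the transitional alveolar state had a mean of 0.49, -0.27, -0.18 and -0.03. Of these, 9 of 11 were highest in tumor 1, against 31.4% of all genes, and 7 of 11 were lowest in tumor 2, against 19.4%. Krt8 was at 1261, 589, 676 and 632 CPM and Krt19 at 457, 154, 172 and 187 CPM.

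**Figure D4:**
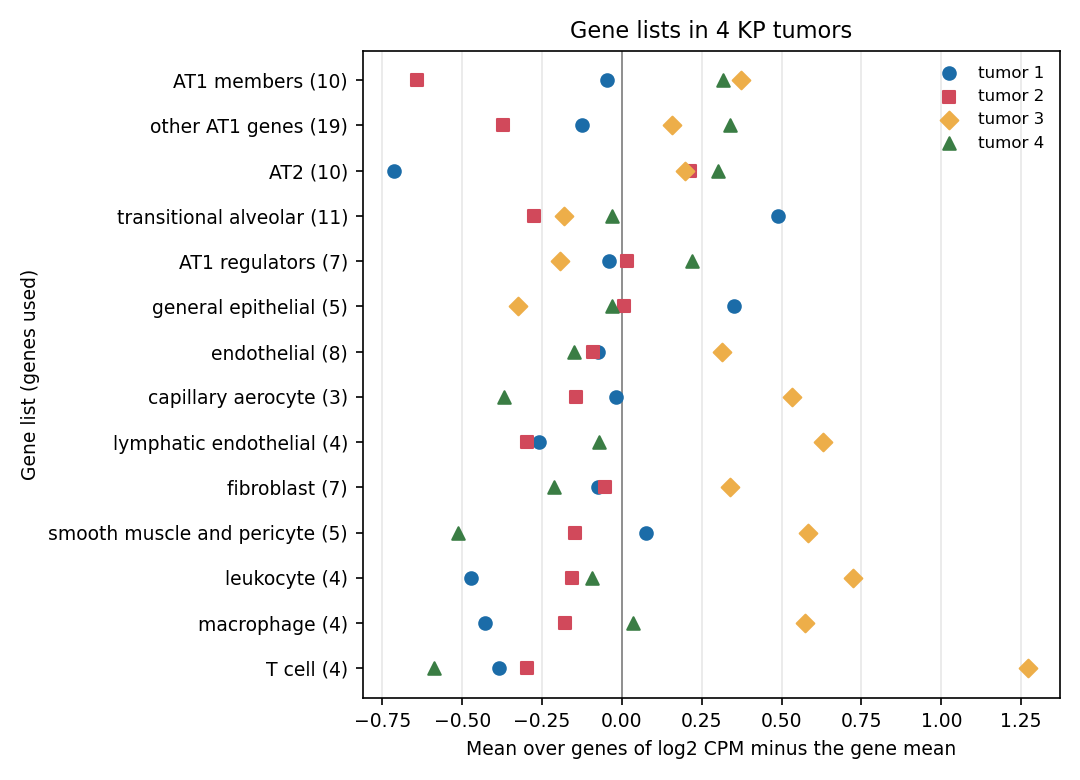
Mean over the genes of each list of log2 CPM centred on each gene's mean, with 1 point per tumor and the number of genes used in brackets. The AT1 markers and the further AT1 genes are lowest in tumor 2, the AT2 list is lowest in tumor 1, and the endothelial, stromal and immune lists are highest in tumor 3.

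Markers of other cells that can transcribe some members moved mainly with tumor 3. The summed level of 8 endothelial genes was 291, 287, 360 and 273 CPM in tumors 1 to 4, and 8 of 8 spread beyond counting error, against 76.7% of all genes. Their mean was -0.07, -0.09, 0.31 and -0.15, highest in tumor 3 and lowest in tumor 4. Pecam1, which defines endothelium, was at 70.5, 73.9, 110 and 78.6 CPM, and Cdh5, the cadherin gene of endothelial junctions, at 60.2, 48.7, 57.3 and 46.3 CPM. The part of endothelium in the values of Cav1 and Clic5 was not tested. Capillary aerocytes, the endothelial cells that face AT1 cells, had a mean of -0.02, -0.14, 0.53 and -0.37 over 3 genes. All 3 genes were highest in tumor 3, but 2 were lowest in tumor 2, against 19.4% of all genes. On the centred log2 scale, Car4 was low in tumor 2, at 0.07, -0.92, 0.53 and 0.31. Apln was instead low in tumors 1 and 4, at -0.32, 0.74, 0.81 and -1.23. The part of aerocytes in the low tumor 2 of the AT1 markers was not tested. The lymphatic mean was -0.26, -0.30, 0.63 and -0.07 over 4 genes, and the lymphatic marker Ccl21a had 0 counts in all tumors. The mesothelial mean was 0.16, -0.09, -0.61 and 0.54 over 3 of 5 genes, with Msln at 33.7, 15.8, 18.4 and 109 CPM. Its high value in tumor 4 rested mainly on Msln, since the other genes used had low counts. Gpm6a had 32, 33, 29 and 38 counts and did not pass the chi-square test of spread (adjusted p = 0.73). Upk3b, named after its values were seen, had 23, 25, 7 and 11 counts.

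The means of stromal and immune lists were also highest in tumor 3, but the stromal genes were split. The summed level of the fibroblast list was 535, 399.7, 521 and 309 CPM, and its mean was -0.07, -0.05, 0.34 and -0.21. Of 7 fibroblast genes, 3 were highest in tumor 3, against 30.2% of all genes, and 3 in tumor 1, against 31.4%. The mean of the smooth muscle and pericyte list was 0.07, -0.15, 0.58 and -0.51. Of its 5 genes, 3 were highest in tumor 3 and 2 in tumor 1, against the same shares. The leukocyte list had a summed level of 87.6, 110, 206 and 121 CPM, and its mean was -0.47, -0.16, 0.72 and -0.09. Tumor 3, the highest for 5 members including Cav1 and Pdpn, was also where the endothelial, stromal and leukocyte means were highest. Pdpn was nearly as high in tumor 1, at 218 CPM against 222 CPM in tumor 3. The summed fibroblast level was instead highest in tumor 1. The part of endothelial, stromal and immune cells in the tumor 3 values of these members was not tested. The fibroblast and smooth muscle means were lowest in tumor 4. Whether these cells had a part in the low tumor 2 of 9 of 10 members was not tested. The general epithelial list had a mean of 0.35, 0.01, -0.33 and -0.03, so that it was not low in tumor 2 as the AT1 markers were. Its genes did not share 1 order. Cdh1 was within 842 to 887 CPM, and Krt18 was lowest in tumor 2, at 1269, 639.7, 748 and 753 CPM. Epcam, an epithelial adhesion gene named after its values were seen, was lowest in tumor 3, at 600.3, 470.4, 218 and 371 CPM, and so was Cldn7, a claudin gene named likewise, at 113, 73.4, 50.7 and 76.0 CPM.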

How the data were processed

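RNA of 4 macrodissected tumors, dissociated to single cells without removal of leukocytes, was sequenced from stranded polyadenylated-RNA libraries (500 ng of total RNA). The authors trimmed reads with Cutadapt, aligned them to mm10 with HISAT2 and counted them per gene, for which the submitters' processing notes name featureCounts 1.4.4. The annotation release and strand setting were not given in the sources used here, so reads of antisense partners may be mixed. The deposited tables hold raw counts, unnormalized, and the combined and single-tumor tables were equal in 156068 of 156068 values. A deposited table of log2 values, made by the authors with TMM and voom, served as an alternative.

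TMM factors came from edgeR 4.0.16 in R 4.3.3. Log2 CPM used 0.5 added to each count. FPKM is CPM per kilobase of merged exons of GENCODE M21 on GRCm38, where all 10 members lie in protein-coding genes. Genes with a mean of at least 1 CPM were tested. Spread was tested by a Poisson chi-square with 3 degrees of freedom and Benjamini-Hochberg adjustment (threshold 0.05). A tumor was called apart by Dixon's ratio of log2 CPM, which normal noise passes in 5% of genes. Both were run with scipy 1.17.1 on Python 3.11.15, and the spread test was checked on simulated counts. Similar transcripts were sought with BLAST 2.17.0 (80 nt or more at 97% identity or more). With 4 tumors the exact sign-flip test cannot go below p = 0.125. Alternatives were DESeq2 1.42.0 size factors, library size only, other filters and pseudocounts, the deposited log2 table, the longest transcript as gene length, and leaving out each tumor. The 10 members and the 19 gene lists (136 of 136 genes matched, 3 of them by identifier) were chosen with earlier results of these data known. All members were named. Of other lists, only the 2 highest genes per kilobase, genes at the floor and genes with 1 tumor apart could be named, not all of which are, and any gene of the further AT1 list and the molecular partners. Genes most alike were the 5 nearest to the mean profile and the nearest to each member with a range over 2-fold. A further allele of the mice and 1 partner gene are not reported here. Reads carried no molecular identifiers, so the floor of 3 counts covers counting error only.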

Additional observations from a re-analysis of the deposited data

Results flagged for a closer look

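The values examined numbered 148 (10 members, 118 genes of the lists, 19 list means and 1 difference). Of these, 12 had 1 tumor far from the other 3 by Dixon's ratio, and 0 of the 10 AT1 markers were among them. Normal noise gives about 1 in 20, and 5.86% of all tested genes passed. The 12 were 8 genes and 4 list means, and the means are made from the same list genes, so they are not separate values. Tumor 1 was far below the others for 2 AT2 genes, with the lamellar body gene Lamp3 at 420 CPM against 1867 CPM or more and the phosphate transporter gene Slc34a2 at 1847 CPM against 5452 CPM or more. The mean of the AT2 list was accordingly far lower in tumor 1, at -0.71 on the centred log2 scale. The club cell gene Scgb1a1 was far lower in tumor 1, at 9.79 CPM against 450.4 CPM or more. Of the ciliated genes, Dnah5 had 0 CPM in tumor 1, where a count of 0 allows up to 0.330 CPM, and the ciliated list was at -1.86 there. Of the transitional alveolar genes, Lgals3 and Itgb6 were set apart in tumor 2, the tumor in which 9 of 10 AT1 markers were lowest. Lgals3 was at 93.2 CPM there against 149 CPM or more. Itgb6 was at 59.8 CPM against 76.2 CPM or more, a range of only 1.31-fold. Dixon's ratio sets a gap against the range of a gene, so it does not measure size. Plaur was set apart in tumor 4, at 19.3 CPM against 27.5 CPM or more. S100a8, whose protein is a ligand of the receptor encoded by Ager, was far lower in tumor 4, at 3.81 CPM against 9.38 CPM or more, while Ager itself was at 1004 CPM there. The mean of the endothelial list was set apart in tumor 3, at 0.31 against -0.07 or less. Of its 8 genes, 5 were highest there, against 30.2% of all genes. The mean of the T cell list was far higher in tumor 3, at 1.27 against -0.30 or less. It rested on low counts, with Trbc2 at 7, 13, 14 and 3 counts and Cd2 at 9, 7, 102 and 18. Its gene Lck, named after its values were seen, was lowest in tumor 3, at 2.34 CPM (adjusted p = 0.54 for its spread).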

How the results depend on the processing

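No paired analysis was possible because the series holds 1 group. Of the main results, 49 alternative values kept their direction or stayed near the reported value, and 2 moved. The count of members with a range over 2-fold was 2 without tumor 2 (Rtkn2 and Cav1), against 23.8% of all genes. Over the 4 omissions it was 2 to 7, against 16.1% to 24.8% of all genes. The count of neighbors that kept their order per kilobase was 5 without tumor 1 and 4 to 5 over the omissions, since 3 tumors agree more easily than 4. Spread beyond counting error held for 9 to 10 members when a tumor was left out, against 62.3% to 71.9% of all genes. The SD of the members' mean profile was 0.23 to 0.57, lowest without tumor 2. There the profile was -0.26, 0.16 and 0.10 in tumors 1, 3 and 4. The profile's SD counted as near if it changed by less than the reported 0.47. The fall to 0.23 was therefore among the 49 values, and no omission could have moved it by this rule. The AT1 minus AT2 difference was -4.36 to -3.85 over the omissions and -4.10 with the longest transcript as gene length, which exchanged the places of Emp2 and Pdpn and of Clic5 and Akap5. Under library size only, 10 of 10 members were lowest in tumor 2. A filter at a mean of 20 CPM left 9 members, without Igfbp2, and all 9 spread beyond counting error, as did 88.6% of all genes at that filter. A further 67 values, of the level of single members and the count lowest in tumor 2, stayed near the reported ones. A level counted as near if it moved by less than its SD over the 4 tumors. Leaving out 1 of 4 tumors can hardly move a mean that far, so the omissions could not test the levels. Dixon's ratio was not computed with a tumor left out, since it is not used on 3 values. The profile without Cav1, Clic5, Emp2 and Pdpn and the count lowest in tumor 2 under other settings were added after the data were seen. Depth limited Igfbp2 most, whose 28 counts in tumor 2 carry a counting error of 18.9%.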

Other observations

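The means of airway genes differed more between the tumors than that of the AT1 markers, with an SD of 1.28 for club and 1.25 for ciliated genes against 0.47. The ciliated mean rested on low counts, with Dnah5 at 0 counts in tumor 1, where its value is set by the pseudocount, and 2 of 4 genes, Ccdc39 and Tekt1, did not pass the test of spread (adjusted p = 0.20 and 0.058). Ccdc39 was highest in tumor 1, at 5.17 CPM. The mean of 4 club cell genes was -1.89, 0.75, 0.84 and 0.30 in tumors 1 to 4 on the centred log2 CPM scale, and that of 4 ciliated genes was -1.86, 0.56, 0.82 and 0.47. Scgb1a1, the secretoglobin of club cells, was at 9.79, 457, 736 and 450.4 CPM, and the cytochrome gene Cyp2f2 at 21.3, 51.1, 127 and 49.95 CPM. The club genes did not share 1 order. Aldh1a1, named after its values were seen, was lowest in tumor 2, at 50.8, 43.7, 81.6 and 52.2 CPM. Scgb3a2, named likewise, was highest in tumor 2, at 5.28, 85.4, 14.6 and 20.8 CPM. Krt14, a keratin of basal and squamous cells, was at 21.0 CPM in tumor 1 and at most 0.833 CPM in the other tumors. The other genes of the basal list were below the filter. Krt5 had 4, 1, 2 and 2 counts in tumors 1 to 4. Trp63, named after its values were seen, had 0, 1, 3 and 9 counts, and so was highest in tumor 4. In tumor 1 the AT1 markers were near their mean, at -0.05.

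Immune lists were highest in tumor 3. The macrophage list had a mean of -0.43, -0.18, 0.57 and 0.03, with the mannose receptor gene Mrc1 at 43.7, 39.7, 108 and 53.3 CPM. The T cell list had a summed level of 6.05, 6.04, 20.6 and 6.18 CPM. Cd2 was at 0.990, 0.813, 12.6 and 2.14 CPM, and so made up much of that sum in tumor 3.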
